A study of Homo sapiens with 20 samples.

Results

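Accessible chromatin was examined at the loci of 6 genes of the Hippo pathway, LATS1, LATS2, NF2, STK3, SAV1 and RASSF1, in cells of the human liposarcoma line SW872. The members are all ATAC-seq peaks that overlapped 1 of 6 intervals of the hg19 genome build, each holding a gene and its flanks: chr6:149969000-150050000 (LATS1), chr13:21537000-21646000 (LATS2), chr22:29989000-30105000 (NF2), chr8:99456000-99966000 (STK3), chr14:51090000-51146000 (SAV1) and chr3:50357000-50389000 (RASSF1). Overlapping peaks of different lists were merged into sites, which gave 119 sites at the 6 loci of 372133 sites in all.

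ATAC-seq cuts open DNA with a transposase, so that the fragments that are sequenced come from accessible chromatin. The 20 libraries came from SW872 cells stably transduced with 1 of 7 retroviral vectors. These were an empty vector (EV), active forms of TAZ and YAP in which alanine replaced the serines that the LATS kinases phosphorylate (TAZ4SA and YAP5SA), CAMTA1, TFE3, and 2 fusion proteins, TAZ-CAMTA1 and YAP-TFE3. Every group had 3 libraries except TFE3, which had 2. All groups share this single cell line and differ by label in the vector only. The third EV library carries the word redo in its title, and the YAP-TFE3 libraries are titled Yap5SA-TFE3. The values analysed are 7 peak lists, 1 per vector, so the libraries of a vector could not be set against each other, the values below carry no replicate error and no test was run.

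The Hippo pathway is a kinase cascade that restrains the transcriptional coactivators YAP and TAZ. STK3 (also known as MST2), held in its active form by the scaffold SAV1 and bound by RASSF1, phosphorylates the kinases LATS1 and LATS2, which phosphorylate YAP and TAZ and keep them out of the nucleus; NF2 (merlin) brings LATS to the membrane where it is activated. In the nucleus YAP and TAZ act through the TEAD factors. LATS2 and NF2 are known transcriptional targets of YAP and TAZ, a negative feedback loop, and the comparison asked whether their loci were more open under TAZ4SA or YAP5SA than those of the other 4 genes.

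Because YAP and TAZ act through TEAD factors, start regions were searched for the TEAD motif. The paper reports that TAZ4SA and YAP5SA bound mostly distal intergenic sequences, and no peak sequence was searched here. A motif at a start, or its absence, therefore does not decide the question. The start regions of both proposed feedback genes are shown. They are RefSeq sequences of GRCh38, not of the build of the peaks, written 5′ to 3′ on the gene's strand, and a window was found for 5 of the 6 genes (all but STK3). Each window held 250 bases before a start and 50 after it. Both strands were searched for the core TEAD motif GGAATG and for a loose AP-1 pattern, TGANTCA, where N is any base. These do not overlap each other, and matches are in capitals. The 250 bases before the LATS2 start (chr13:21061587-21061836, minus strand) and those before the upstream one of the NF2 starts (chr22:29603306-29603555, plus strand) held neither motif:
LATS2: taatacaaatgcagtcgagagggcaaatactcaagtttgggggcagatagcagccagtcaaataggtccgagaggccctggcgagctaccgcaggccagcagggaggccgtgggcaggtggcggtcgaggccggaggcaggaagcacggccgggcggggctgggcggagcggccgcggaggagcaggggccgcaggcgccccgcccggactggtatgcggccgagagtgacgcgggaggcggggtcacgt
NF2: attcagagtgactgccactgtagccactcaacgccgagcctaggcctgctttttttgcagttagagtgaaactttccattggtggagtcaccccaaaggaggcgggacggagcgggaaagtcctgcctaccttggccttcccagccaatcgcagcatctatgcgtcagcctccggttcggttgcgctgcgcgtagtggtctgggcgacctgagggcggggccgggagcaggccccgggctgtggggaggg

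The LATS2 window had 1 TEAD core, which began at base 10 counted from the start (chr13:21061560-21061589 is printed), and the RASSF1 window had 1, on the opposite strand, whose first base lay at position -86 (chr3:50337519-50337548):
LATS2: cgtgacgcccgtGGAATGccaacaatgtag
RASSF1: gagcgatgaggtCATTCCtgggggcgaagc

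The windows of LATS1, NF2 and SAV1 held no TEAD core, and 1 LATS1 window matched the loose AP-1 pattern, as TGAATCA, at position -245. Among all 35116 RefSeq windows of this length, 14.0% held the TEAD core and 7.71% the loose AP-1 pattern, so either match in a single window is common. These matches describe the letters only.

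Of the 119 sites, 24 (20.2%) were open in every list and 49 (41.2%) in a single list, against 16.2% and 42.3% of all sites. The LATS1 locus had 9 sites, LATS2 13, NF2 19, STK3 52, SAV1 9 and RASSF1 17; STK3 spans the longest interval at 510 kb, and RASSF1, in a gene-dense interval of 32 kb, had the most sites per length. Peaks were found at 38 of the 119 sites in EV, 38 in TAZ4SA, 65 in YAP5SA, 63 in CAMTA1, 38 in TFE3, 73 in TAZ-CAMTA1 and 63 in YAP-TFE3. The whole lists ranged from 152702 peaks in TAZ4SA to 236893 in TAZ-CAMTA1, and the median log2 ratio of peak area to EV over all shared sites ran from -0.59 in TAZ4SA to 1.36 in TAZ-CAMTA1. The area of a peak is the area under the peak caller's significance curve and grows with depth, which is unknown here. Lists are therefore compared by share of their summed area, in parts per 1000000 (ppm), or by log2 ratio to EV. That ratio is centred on the median over all sites with both peaks. Areas as deposited are also given for single sites, and differences in them between lists include the overall scale of the lists.

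**Figure D1:**
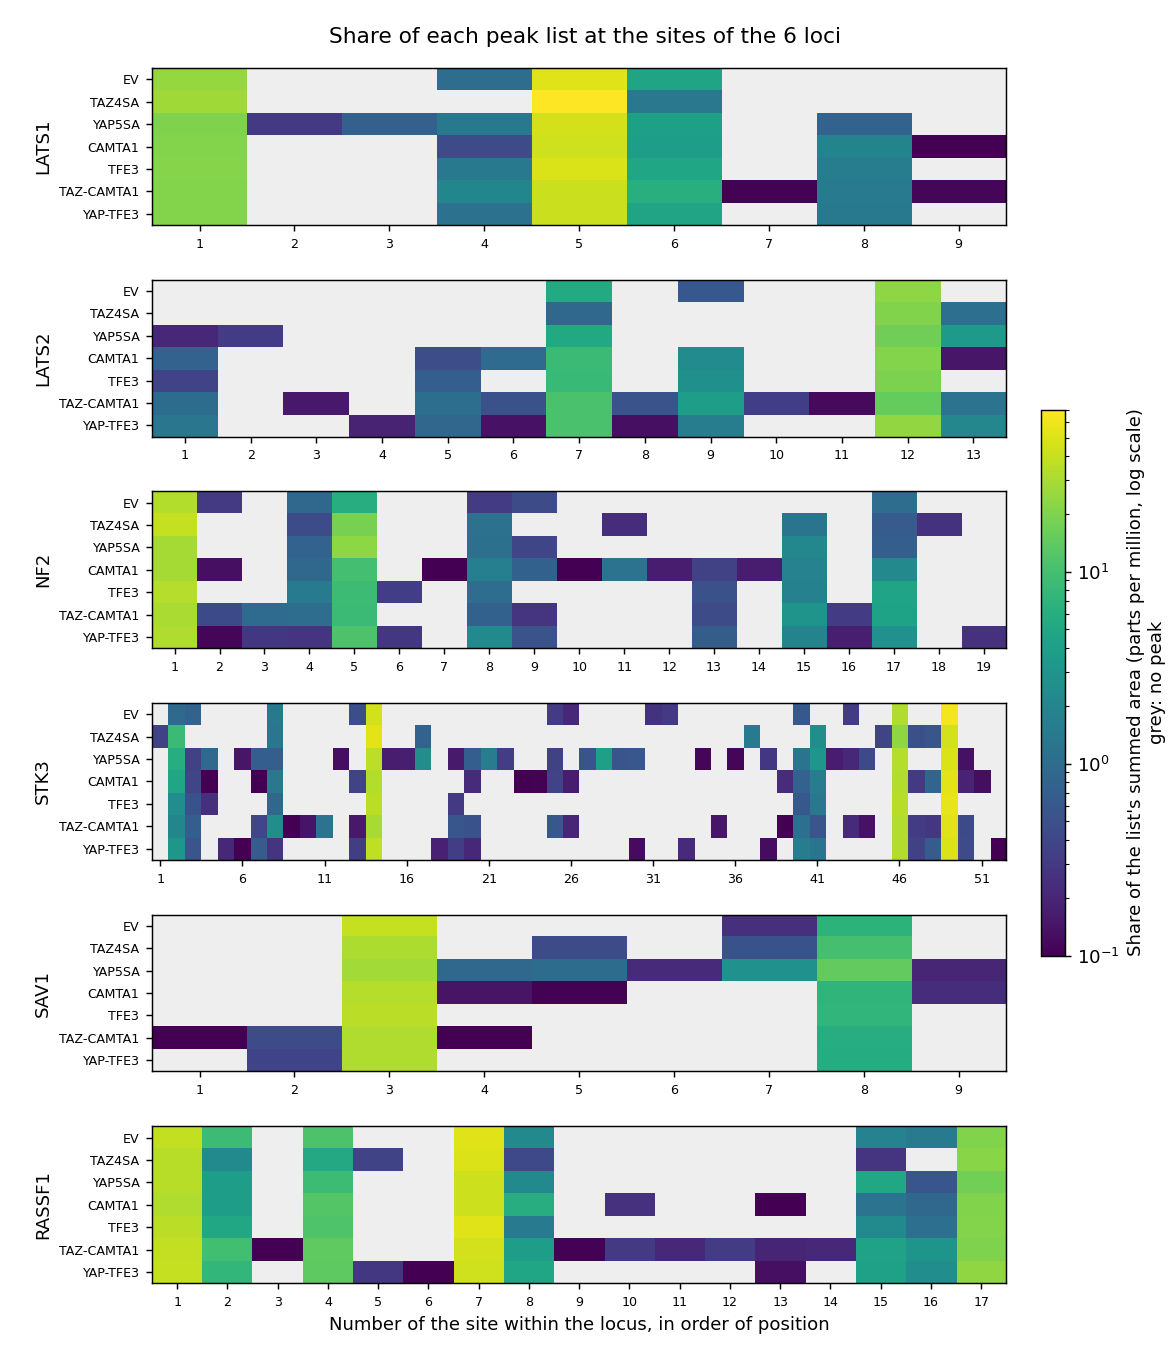
Share of the summed area of each list (colour, ppm, log scale) at every site of the 6 loci, with the 7 lists in rows and the sites in columns in order of position; grey means no peak, and shares under 0.1 ppm take the darkest colour. Each locus had a few strong sites present in all 7 lists, among weaker sites that came and went between lists.

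NF2 was the locus whose share of the list stood furthest above EV under TAZ4SA and YAP5SA. Its peaks took 42.1 ppm of the EV list, 62.0 ppm of TAZ4SA, 57.4 of YAP5SA, 48.4 of CAMTA1, 52.0 of TFE3, 51.1 of TAZ-CAMTA1 and 52.8 of YAP-TFE3. All 6 vectors lay above EV, with TAZ4SA (1.47-fold) and YAP5SA (1.36-fold) the highest and CAMTA1 (1.15-fold) the lowest. By share of bases covered in place of area, the order turned: the log2 ratio of NF2 to EV was 0.57 in TAZ4SA but 0.14 in YAP5SA, the lowest of the 6 vectors.

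LATS2 did not share this pattern. Its peaks took 29.2 ppm of the EV list, 22.05 of TAZ4SA, 26.0 of YAP5SA, 34.3 of CAMTA1, 31.2 of TFE3, 34.4 of TAZ-CAMTA1 and 40.8 of YAP-TFE3. The lists of the active coactivators were the 2 lowest, at 0.75-fold and 0.89-fold of EV, and YAP-TFE3 was the highest at 1.39-fold. The paper set differential expression beside ChIP-seq peaks for the fusions and controls in SW872 cells. It named LATS2 among the known YAP/TAZ targets that appeared there. Open chromatin does not measure binding or expression, which were not examined here.

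By area, the other 4 loci stayed closer to EV than NF2 did under TAZ4SA and YAP5SA. LATS1 took 81.9 ppm of EV, 98.8 of TAZ4SA, 72.5 of YAP5SA, 70.5 of CAMTA1, 77.2 of TFE3, 72.3 of TAZ-CAMTA1 and 68.9 of YAP-TFE3, so that TAZ4SA alone was above EV, at 1.21-fold. The STK3 locus ranged from 127 ppm in TAZ-CAMTA1 to 146 ppm in YAP5SA, with EV at 144.5 ppm, and SAV1 from 38.2 ppm in YAP-TFE3 to 47.9 ppm in YAP5SA, with EV at 47.0 ppm. RASSF1 had 135 ppm in EV, 115 ppm in both TAZ4SA and YAP5SA, and 140 ppm in its highest list, YAP-TFE3.

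None of the 6 loci differed from EV by 1.5-fold in any of the 6 vectors. Windows of 100 kb across the genome passed that fold, in either direction, in 41.7% of cases for TAZ4SA, 37.8% for YAP5SA, 35.4% for CAMTA1, 28.1% for TFE3, 34.5% for TAZ-CAMTA1 and 36.2% for the other fusion. The windows were not matched to the loci in length or signal. In bulk samples a smaller share of cells with an open site and a less open site in every cell cannot be told apart.

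**Figure D2:**
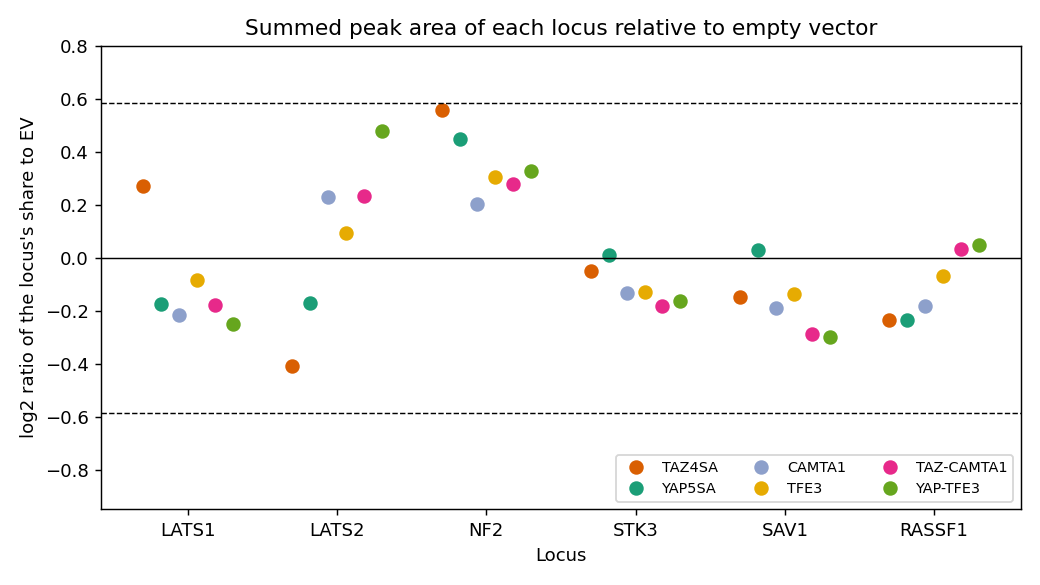
The log2 ratio of each locus's share to EV (y axis) for the 6 loci (x axis), 1 point per vector; dashed lines mark 1.5-fold. NF2 points lie above 0 for all 6 vectors with TAZ4SA highest (0.56), whereas TAZ4SA (-0.41) and YAP5SA (-0.17) are the lowest points of LATS2.

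When LATS2 and NF2 were summed and set against the sum of the other 4 loci, the log2 ratio to EV was higher for LATS2 and NF2 by 0.28 in TAZ4SA, 0.33 in YAP5SA, 0.39 in CAMTA1, 0.32 in TFE3, 0.38 in TAZ-CAMTA1 and 0.51 in YAP-TFE3. The values share the EV list as reference. Summing weights the loci by area, and STK3 (144.5 ppm in EV) and RASSF1 (135 ppm) made up most of the 408 ppm of the other 4. Both of these intervals have other genes within 10 kb in GRCh38. TAZ4SA had the lowest of these 6 differences, and the lists with no TAZ or YAP part, CAMTA1 and TFE3, had differences of like size. The order of the vectors depended on the measure. With intervals shortened by 10 kb at both ends TAZ-CAMTA1 was lowest at -0.03, with TAZ4SA at 0.09 and YAP5SA at 0.19, and by share of bases covered YAP5SA was lowest at 0.05, with TAZ4SA at 0.27. With the mean of EV, CAMTA1 and TFE3 as the reference, chosen after the data were seen, the differences were 0.04 in TAZ4SA and 0.09 in YAP5SA, against 0.27 in YAP-TFE3.

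The pair also hid opposite values of its members. NF2 alone exceeded the other 4 loci by 0.61 in TAZ4SA and 0.55 in YAP5SA, and LATS2 alone gave -0.36 and -0.07. Without a single NF2 site, site 5 described below, the difference of the pair was 0.06 in TAZ4SA and -0.01 in YAP5SA. That site was left out because it was highest in these lists, so a drop there follows from the choice, and the values give only its size.

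**Figure D3:**
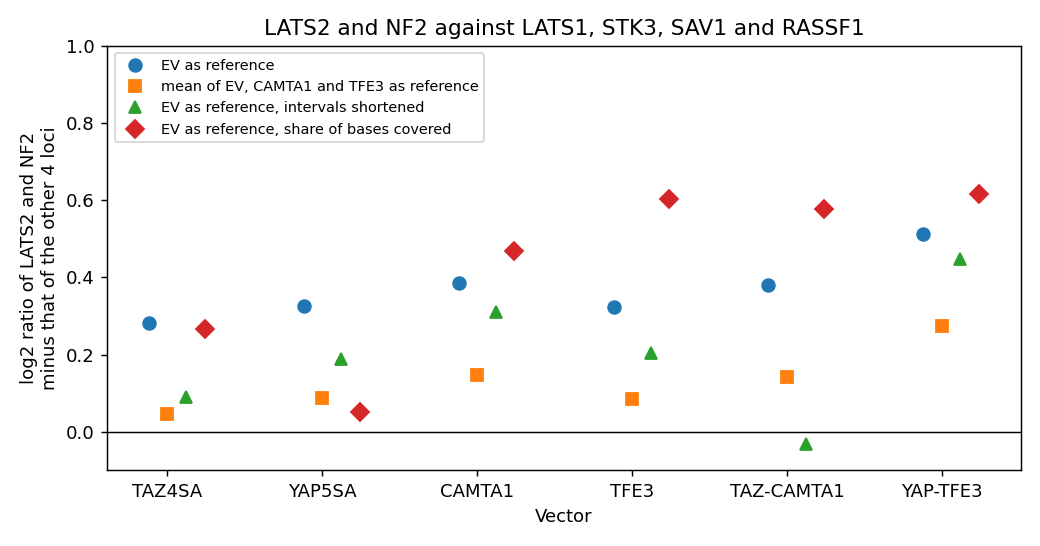
The log2 ratio of LATS2 and NF2 minus that of the other 4 loci (y axis) for each vector (x axis), with EV as the reference, with the mean of EV, CAMTA1 and TFE3 as the reference, and with EV as the reference for intervals shortened by 10 kb and for the share of bases covered. YAP-TFE3 is the highest under all 4, and TAZ4SA lies between 0.04 and 0.28.

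The log2 ratio of the NF2 locus to EV without site 5 was 0.28 in TAZ4SA and -0.07 in YAP5SA, against 0.56 and 0.45 with it. Site 5 lies at chr22:30017475-30018890, 18.5 kb further along the direction of transcription than the strongest NF2 site, and no hg19 gene annotation was used, so exon or intron is not given. Its area was 778 in EV, 1697 in TAZ4SA, 4247 in YAP5SA, 2334 in CAMTA1, 1083 in TFE3, 2323 in TAZ-CAMTA1 and 3192 in YAP-TFE3. As a share this was 5.93 ppm in EV, 18.2 in TAZ4SA, 23.04 in YAP5SA, 9.83 in CAMTA1, 8.89 in TFE3, 8.70 in TAZ-CAMTA1 and 11.2 in YAP-TFE3. The share in TAZ4SA and YAP5SA was at least 1.62 times that in any other list, and the fusion lists lay near CAMTA1 and TFE3.

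The centred log2 ratio of this site to EV was 1.71 in TAZ4SA and 2.06 in YAP5SA, and between 0.22 (TAZ-CAMTA1) and 0.72 (YAP-TFE3) in the other 4 vectors. The site falls outside the rule by which sites are named here and was singled out after its values were seen. Its ratios stand at percentile 88.5 in TAZ4SA and 89.9 in YAP5SA among all sites with both peaks, so many sites elsewhere rose as much. By itself it was the only 1 of the 24 member sites found in all 7 lists at which both coactivator lists reached 1.5 times every other list by share (4.17%), against 3.01% of all sites in 7 lists.

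The strongest NF2 site, site 1 (chr22:29998980-30000291), lies 10.6 kb inside the 5′ edge of the interval, at the end where the gene starts. It took 33.1 ppm of EV, 39.8 of TAZ4SA, 29.3 of YAP5SA, 28.97 of CAMTA1, 33.4 of TFE3, 30.7 of TAZ-CAMTA1 and 32.1 of YAP-TFE3. By share, TAZ4SA was the highest and YAP5SA among the lowest. By centred ratio to EV, TAZ4SA (0.36) and YAP5SA (-0.08) were above the other vectors, which ran from -0.44 in TAZ-CAMTA1 to -0.22 in TFE3. With ratios centred among sites of like mean area, YAP5SA (0.07) lay among those vectors (-0.03 to 0.10). The rank of YAP5SA thus depended on the measure. By share, the 2 active coactivators stood on opposite sides of EV at site 1 and both above it at site 5, with no replicate error for either.

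Other NF2 sites were weak. Site 8 (chr22:30020486-30020798), which has the highest mean ratio of TAZ4SA and YAP5SA in the locus, had an area of 41.7 in EV, 109 in TAZ4SA, 209 in YAP5SA, 403 in CAMTA1, 127 in TFE3, 205 in TAZ-CAMTA1 and 639 in YAP-TFE3. It was above EV in every vector, and its centred ratios in YAP-TFE3 (2.62) and CAMTA1 (2.23) exceeded those in TAZ4SA (1.97) and YAP5SA (1.93). Site 17 (chr22:30100569-30101331), the lowest by the same measure, was below EV in the coactivator lists (-0.58 and -0.42) and above it in the other 4, up to 1.90 in TFE3. Site 15 (chr22:30097332-30098969) had no EV peak but a peak in all 6 vectors, with areas of 116 in TAZ4SA, 386 in YAP5SA, 435 in CAMTA1, 219 in TFE3, 789 in TAZ-CAMTA1 and 535 in YAP-TFE3. By share it took 1.25 ppm of TAZ4SA, 2.09 of YAP5SA, 1.83 of CAMTA1, 1.80 of TFE3, 2.95 of TAZ-CAMTA1 and 1.88 of YAP-TFE3.

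At LATS2, the strongest site was site 12 (chr13:21634367-21636131), 10.8 kb inside the 5′ edge of the interval. It took 23.1 ppm of EV, 20.05 of TAZ4SA, 16.9 of YAP5SA, 20.9 of CAMTA1, 19.0 of TFE3, 15.01 of TAZ-CAMTA1 and 23.9 of YAP-TFE3. It was at once the largest LATS2 site in EV and the one with the higher mean ratio among the 2 LATS2 sites with EV, TAZ4SA and YAP5SA peaks, yet both ratios were below 0 (-0.11 and -0.35). So were those of CAMTA1 (-0.33), TFE3 (-0.50), TAZ-CAMTA1 (-0.95) and YAP-TFE3 (-0.15), and TAZ4SA had the highest ratio of all vectors.

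LATS2 site 7 (chr13:21590788-21592018), 43.8 kb further along the gene, had an area of 728 in EV, 84.2 in TAZ4SA, 975 in YAP5SA, 2045 in CAMTA1, 1026 in TFE3, 2842 in TAZ-CAMTA1 and 3012 in YAP-TFE3. TAZ4SA lay far below every other list, with a centred ratio of -2.52, whereas YAP5SA was level with EV (0.03) and YAP-TFE3 had the highest ratio (0.74). This site and the strongest one made up nearly all of the EV signal of the locus. The share of site 7 was 5.55 ppm in EV and 0.903 ppm in TAZ4SA, a larger gap than that at site 12.

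A LATS2 site with peaks in TAZ4SA and YAP5SA and none in EV was site 13 (chr13:21643719-21644131), 8.68 kb before site 12 along the direction of transcription. Its area was 102 in TAZ4SA, 615 in YAP5SA, 35.4 in CAMTA1, 321 in TAZ-CAMTA1 and 583 in YAP-TFE3, with no peak in EV or TFE3. The site was named for having TAZ4SA and YAP5SA peaks and no EV peak, so that part of its pattern follows from the choice. Of the 3 LATS2 sites with both coactivator peaks it was the 1 without an EV peak, against 19.8% of all such sites. Its TAZ4SA peak was near the middle of that list by area (percentile 52.3). By share the order was YAP5SA (3.33 ppm), YAP-TFE3 (2.05 ppm), TAZ-CAMTA1 (1.20 ppm), TAZ4SA (1.09 ppm) and CAMTA1 (0.149 ppm).

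**Figure D4:**
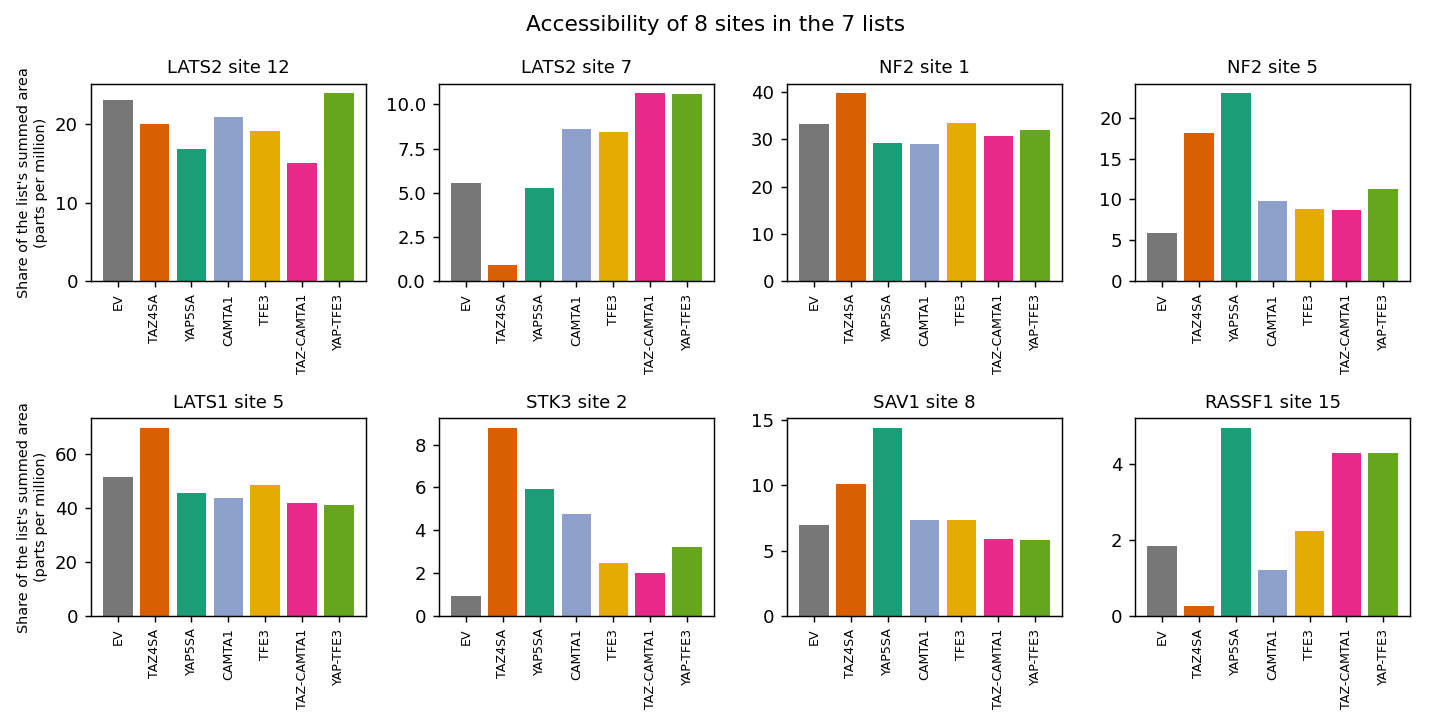
Share of the summed area of the list (bars, ppm, axes from 0) at 8 sites of the 6 loci, 1 bar per list; the sites were picked after their values were seen. TAZ4SA (18.2) and YAP5SA (23.04) tower at NF2 site 5, whereas LATS2 site 7 is lowest in TAZ4SA (0.903) and the strongest LATS2 site runs from 15.01 (TAZ-CAMTA1) to 23.9 (YAP-TFE3).

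LATS1 was led by site 5 (chr6:150038287-150039955), with 51.4 ppm in EV, 69.6 in TAZ4SA, 45.5 in YAP5SA, 43.7 in CAMTA1, 48.3 in TFE3, 41.8 in TAZ-CAMTA1 and 41.2 in YAP-TFE3. TAZ4SA alone exceeded EV there (centred ratio 0.53, against -0.07 in YAP5SA), and this site gave the locus its high TAZ4SA share. Its weak neighbour, site 6 (chr6:150040060-150040907), had the lowest mean ratio, with an area of 596 in EV, 129 in TAZ4SA and 761 in YAP5SA. The centred ratios of site 6 were -1.62 in TAZ4SA and -0.04 in YAP5SA. KATNA1 and NUP43 lie within 10 kb of LATS1 in the GRCh38 annotation, so peaks near the edges of the interval may be theirs.

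In the STK3 interval the largest EV site, site 49 (chr8:99955961-99958786), lies 8.63 kb inside the 5′ edge, and OSR2 and KCNS2 lie within 10 kb of STK3 in the GRCh38 annotation. It took 62.7 ppm of EV, 45.1 of TAZ4SA and 48.7 of YAP5SA, with 47.8 to 55.4 ppm in the other lists, so every vector lay below EV by share. Centred among sites of like mean area, its ratios were -0.49 in TAZ4SA, -0.07 in YAP5SA and -0.09 to 0.07 in the other vectors. The site with the highest ratios was far down the interval, site 2 (chr8:99478707-99479359), with an area of 122 in EV, 820 in TAZ4SA, 1093 in YAP5SA, 1135 in CAMTA1, 303 in TFE3, 537 in TAZ-CAMTA1 and 921 in YAP-TFE3. All vectors were above EV at site 2, and its centred ratios were 3.33 in TAZ4SA, 2.77 in YAP5SA and 2.18 in CAMTA1.

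STK3 site 8 (chr8:99738047-99739070), the lowest by that measure, was at -0.04 in TAZ4SA and -0.86 in YAP5SA, and at -2.59 in YAP-TFE3. Site 17 (chr8:99847231-99847500) had a peak in TAZ4SA (area 74.8) and YAP5SA (472) and in no other list. It was the only such member site, and is named for that reason after its values were seen.

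SAV1 was led by site 3 (chr14:51133597-51136695), which took 39.8 ppm of EV, 31.3 of TAZ4SA, 28.5 of YAP5SA and 31.9 to 35.3 ppm in the other lists. It was also the lowest by mean ratio of the 3 SAV1 sites with EV, TAZ4SA and YAP5SA peaks. Centred among sites of like mean area, site 3 stood at -0.24 in TAZ4SA, -0.23 in YAP5SA and -0.11 to -0.04 in the other vectors. A pair of sites before it along the gene's direction went the other way. Site 8 (chr14:51143888-51145205), 9.40 kb before site 3 and named after its values were seen, took 6.95 ppm of EV, 10.1 of TAZ4SA, 14.4 of YAP5SA, 7.31 of CAMTA1, 7.37 of TFE3, 5.92 of TAZ-CAMTA1 and 5.79 of YAP-TFE3. Both coactivator lists were above all others there, and both fusion lists were the lowest.

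SAV1 site 7 (chr14:51142367-51142638) had the highest mean ratio of the locus, with an area of 32.5 in EV, 48.9 in TAZ4SA and 504 in YAP5SA and no peak in the other 4 lists. Its EV and TAZ4SA areas were near the lowest that the lists hold, so its TAZ4SA ratio (1.18) rests on weak peaks. ATL1 lies within 10 kb of SAV1 in the GRCh38 annotation.

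RASSF1 lies among HYAL2, TUSC2, ZMYND10 and NPRL2, all within 10 kb in the GRCh38 annotation, and its interval cannot be assigned to 1 gene. Its largest EV site, site 7 (chr3:50373907-50376206), took 51.0 ppm of EV, 49.5 of TAZ4SA, 42.8 of YAP5SA and 43.0 to 51.2 ppm in the other lists. The site with the highest mean ratio, site 17 (chr3:50387376-50389303), differed little from EV (0.22 in TAZ4SA and -0.13 in YAP5SA).

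TAZ4SA was 2-fold or more below EV at 3 of the 7 RASSF1 sites with both peaks, against 20.8% of all sites; the Wilson interval of that share (15.8 to 74.95%) covers the latter. Site 2 (chr3:50360651-50362471), the lowest, had an area of 1185 in EV, 211 in TAZ4SA and 718 in YAP5SA, with centred ratios of -1.90 and -1.11. At site 15 (chr3:50382888-50383620), named after its values were seen, the area was 242 in EV, 25.5 in TAZ4SA, 916 in YAP5SA, 290 in CAMTA1, 273 in TFE3, 1149 in TAZ-CAMTA1 and 1221 in YAP-TFE3. TAZ4SA (-2.66) and YAP5SA (1.53) thus stood on opposite sides of EV there.

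Over all 6 loci, the share of sites with a vector peak and no EV peak was near that of all sites. Of the 38 member sites with a TAZ4SA peak, 13 (34.2%, Wilson 95% interval 21.2 to 50.1, which covers counting error only) had no EV peak, against 37.1% of all sites, and of the 65 with a YAP5SA peak 33 (50.8%, 38.9 to 62.5), against 49.9%. The counts were 29 of 63 for CAMTA1 (46.0%, against 45.7%), 9 of 38 for TFE3 (23.7%, against 24.3%), 38 of 73 for TAZ-CAMTA1 (52.1%, against 50.6%) and 31 of 63 for YAP-TFE3 (49.2%, against 50.1%). LATS2 gave 1 of 3 in TAZ4SA and 3 of 5 in YAP5SA, NF2 3 of 8 and 1 of 7, and STK3, which holds most of these sites, 7 of 12 and 22 of 31.

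In the other direction, fewer EV sites of the 6 loci lacked a vector peak than elsewhere. Of the 38 member sites with an EV peak, 13 (34.2%) had none in TAZ4SA, against 44.5% of all EV sites, 6 (15.8%) none in YAP5SA, against 28.2%, and 4 (10.53%) none in CAMTA1, against 21.9%. For TFE3 the count was 9 (23.7%, against 31.0%), for TAZ-CAMTA1 3 (7.89%, against 17.2%) and for YAP-TFE3 6 (15.8%, against 20.9%). The member share was the lower one in all 6 vectors, which share the EV list, and each Wilson 95% interval covered the share of all sites, as in YAP5SA (7.44 to 30.4).

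Sites with a peak in both TAZ4SA and YAP5SA numbered 30, of which 5 (16.7%) had none in EV, against 19.8% of all such sites. They lay 1 in LATS2, 1 in NF2, 2 in STK3 and 1 in SAV1. A single site (3.33%), STK3 site 17, also lacked peaks in CAMTA1 and TFE3, against 6.87% of all.

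Among sites with both peaks, TAZ4SA was 2-fold or more above EV at 4 of 25 (20.6% of all sites) and 2-fold or more below it at 5 of 25 (20.8% of all). YAP5SA was above at 7 of 32 (23.6% of all) and below at 3 of 32 (14.9% of all). The median centred ratio of the member sites was -0.04 in TAZ4SA and -0.08 in YAP5SA, against 0 over all sites by construction.

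Both coactivators were above EV by 2-fold at 4 of the 25 sites with peaks in EV, TAZ4SA and YAP5SA (16.0%, against 14.0% of all sites), namely NF2 sites 5 and 8, STK3 site 2 and SAV1 site 7. None of the 2 LATS2, 3 LATS1 and 7 RASSF1 sites with those peaks was among them, against 2 of 5 in NF2. Counts this small do not set the loci apart. Of the 24 sites in all 7 lists, TAZ4SA and YAP5SA were the 2 highest by share at 3 (12.5%, against 9.23% of all), NF2 site 5, STK3 site 2 and SAV1 site 8. The sites at which both active coactivators led were thus spread over NF2, STK3 and SAV1, 1 in each.

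**Figure D5:**
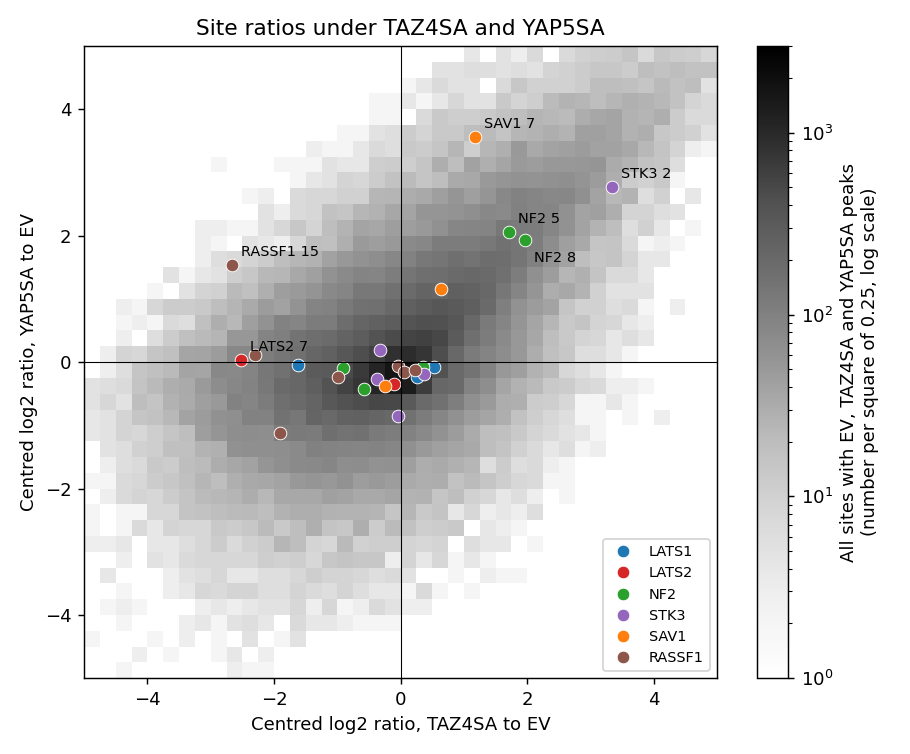
Centred log2 ratio to EV in TAZ4SA (x axis) and YAP5SA (y axis) for the 25 member sites with peaks in all 3 lists, coloured by locus, over the density of all sites with those peaks (grey, log scale). Most member sites lie within 2-fold of EV on both axes, and NF2 sites 5 and 8, STK3 site 2 and SAV1 site 7 lie above 1 on both. In TAZ4SA, RASSF1 site 15 lies at -2.66, LATS2 site 7 at -2.52 and RASSF1 site 8 at -2.31. Both RASSF1 values rest on weak TAZ4SA peaks (areas 25.5 and 39.8).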

How the data were processed

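ATAC-seq was performed on 20 SW872 libraries, and 1 peak list per vector was analysed. Per the methods of the study, the authors trimmed reads with NGmerge, aligned them with BWA-MEM and called peaks with Genrich, with duplicates removed and an hg19 blacklist. Those methods describe peaks called on each replicate and a consensus set made in DiffBind, but not how the deposited single list of a vector relates to either. The submitters' processing notes name the build mm8 and Bowtie 0.12.2, but peaks on chromosome 1 reach base 249240671, as in human hg19. The deposited signal of a peak is the area under the caller's curve, with a lowest value of 20.0, and the deposited −log10 p is that of the summit. The score that the authors deposited, a capped mean area per base, was not used. Depth per list is unknown.

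Peaks overlapping by 1 bp or more were merged into sites, and areas were summed per site. Ratios to EV were centred on the median over all sites with both peaks. A locus was given as its share of the summed area of the list. Sites past 2-fold and loci or 100 kb windows past 1.5-fold were counted. With 1 list per vector there was no test. The site-level counting was run on simulated lists with equal peak widths, low noise and a planted change. Those settings are simpler than the data, so the run checked the code only. The sites named are, per locus, the largest in EV and those with the highest and lowest mean ratio of TAZ4SA and YAP5SA, and in LATS2 and NF2 up to 3 sites with peaks in both and none in EV; others are marked in the text. The members and rules were chosen with earlier results of these data known. Sites are numbered within each locus by position. Strands came from the GENCODE annotation of GRCh38 and neighbouring genes from the RefSeq annotation of the same build. Neither gave coordinates of peaks, and no other genes of the pathway were analysed here. Analyses used Python 3.11.15, pandas 2.3.3 and numpy 2.4.6.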

Additional observations from a re-analysis of the deposited data

How the results depend on the processing

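The alternatives were limits of 4 and 5 on the summit −log10 p, equal numbers of peaks by summit −log10 p or by area, intervals shortened by 10 kb at both ends, other rules of overlap, other scalings and, chosen after seeing the data, centring by mean area, a joint reference list and NF2 without site 5. Of 104 recomputed values of the 12 main results, 90 were counted as staying within 1.5-fold or within the interval of the value reported, and 14 moved. Differences of summit −log10 p were held to the same numerical limit although they are not folds, so for them staying does not mean within 1.5-fold. The main locus and pair values were themselves smaller than 1.5-fold, so a change of sign there could count as staying. In YAP5SA, LATS2 went from -0.17 to 0.32 with areas not scaled, and NF2 from 0.45 to -0.07 without site 5. A reversal was counted only for reported values past 1.5-fold, or past 2-fold at a site. The share of sites without an EV peak was 15.8% in TAZ4SA and 37.1% in YAP5SA with the limit of 5, and 52.6% and 66.2% when 50% of both peaks had to overlap; in YAP5SA it was 38.3% and 36.7% with equal numbers of peaks by summit −log10 p and by area. Without centring, the median member ratio was -0.63 in TAZ4SA, and the ratio of NF2 site 5 in TAZ4SA was 1.13; by the difference of summit −log10 p, NF2 site 5 stood at 2.38 in TAZ4SA and 2.90 in YAP5SA (units of −log10 p). By share of peaks, YAP5SA gave 0.57 at LATS2, -0.43 at NF2 and -0.32 for the pair against the other 4 loci. By share of area, LATS2 alone against the other 4 gave -0.36 in TAZ4SA. RASSF1 site 2, below EV by area, was above it by summit −log10 p in YAP5SA (0.19) and TFE3 (0.28). The causes were not tested. Among 1043 values of the other results, 871 stayed, 170 moved and 2 reversed. Leaving out a library was not run, and no paired fit either. No paired analysis was possible because each vector has a single list with no values per library. The depth behind a list is unknown, so a missing peak may be a peak below the caller's limit.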
